A study of Mus musculus with 8 samples.

Results

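The untreated distal colon of *Hsf1* null mice was compared with that of WT mice by RNA-seq, across all genes. The samples were chosen by their labels, as every library of the series from an untreated mouse at day 0, and made up 4 of 8 samples. There were 2 WT and 2 *Hsf1* null mice. The other 4 samples come from mice at day 15 of a treatment with azoxymethane, a carcinogen, and dextran sulfate sodium, which injures the colon epithelium. The comparison asks which genes differ with genotype before that treatment, for which the untreated mice serve as baseline. The WT and *Hsf1* null mice were male, on a mixed BALB/c x 129SvEV background, and were labelled as age-matched controls that received no treatment. The sample labels give an age of 10 weeks, and the text of the series gives 9.5 weeks. The labels name no cell type or driver for the loss of *Hsf1*, so the genotype is that of the whole mouse. RNA was polyadenylated RNA of the distal colon, with no cell type sorted out.

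HSF1 is the transcription factor that turns on genes of chaperones when proteins misfold, by binding repeats of a short motif in their promoters as a trimer. In unstressed cells most HSF1 is held inactive by chaperones, and it also acts outside the heat shock response, in cell division, metabolism and the activity of fibroblasts in tumours. Chaperones keep new and damaged proteins folded, and the epithelium of the colon renews itself within days, so that it depends on steady protein synthesis.

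The total counts were 9393945 and 2553348 in WT replicates 1 and 2, and 12440257 and 2675976 in *Hsf1* null replicates 1 and 2. Of the 15859 genes in the deposited table, 219 and 1054 had no count in the WT mice and 311 and 969 had none in the *Hsf1* null mice. Each genotype thus had a deep library and a shallow one. Values are given as CPM, counts scaled by edgeR to a common library size with its TMM method, always in the order WT replicate 1, WT replicate 2, *Hsf1* null replicate 1, *Hsf1* null replicate 2 unless stated. Log2 fold changes are WT over *Hsf1* null, so that a positive value is higher in WT. They come from 1 edgeR model of the 4 groups and all 8 mice. Each has a standard error (SE), taken as its absolute value divided by the square root of the F statistic of edgeR's test.

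Markers of the tissue were checked in each library. Of 12 genes of colon identity, 11 were in the table, and *Prac1* was not. *Hoxb13*, a transcription factor of the hindmost gut, was at 278, 515, 385 and 307 CPM. It did not separate the genotypes. The summed level of 7 small intestine genes in the table was between 8.34 and 15.1 CPM, with *Fabp6* as the most abundant (here and below, the gene with the highest mean CPM over the 4 untreated mice), and that of the squamous epithelium genes was between 7.94 and 20.4 CPM. Of the pancreas genes, *Cela1*, an elastase, was at 169, 288, 245 and 232 CPM, and *Cpa1* and *Ctrb1* were at 0 in all 4 libraries. *Alas2* was the only erythrocyte gene in the table, at 0.686, 0.397, 2.30 and 0.719 CPM.

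WT replicate 1 stood apart from the other libraries. *Xist*, the RNA that coats the inactive X chromosome in female cells, was at 183 CPM (1872 counts) in WT replicate 1, at 0 in WT replicate 2, and in the *Hsf1* null mice at 1.72 and 1.80 CPM. At day 15 it was between 1.37 and 4.81 CPM. The Y-linked genes were present in all 4 untreated libraries: *Kdm5d*, a histone demethylase, was at 31.2, 31.4, 28.7 and 36.7 CPM, and *Ddx3y*, an RNA helicase, at 13.2, 15.9, 23.1 and 28.7 CPM. All mice are labelled male, and WT replicate 1 held RNA of *Xist* beside RNA of the Y chromosome. Whether this library holds RNA of more than 1 mouse, or of a mouse other than the labelled one, was not tested, so every WT value that includes it carries this doubt. Of the 14371 genes tested, 574 were more than 1 log2 unit higher in WT replicate 1 than in each of the other 3 libraries. The same count was 51 for WT replicate 2, 39 for *Hsf1* null replicate 1 and 189 for *Hsf1* null replicate 2. More than 1 log2 unit below each of the other 3 libraries were 56 genes in WT replicate 1, 328 in WT replicate 2, 107 in *Hsf1* null replicate 1 and 400 in *Hsf1* null replicate 2. These were most in the shallow libraries, and by both directions *Hsf1* null replicate 2 stood apart as well.

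After *Xist*, the genes furthest above the other libraries in WT replicate 1 included *H19*, *Igf2* and *Dlk1*, imprinted genes known for high levels in fetal tissue, and *Lox*, which encodes a secreted enzyme of connective tissue. These genes were chosen after their values were seen. *H19* was at 65.2 CPM in WT replicate 1 and at 0.397, 0.985 and 0 CPM in the others. *Igf2* was at 238 CPM in WT replicate 1 and at 12.3, 13.6 and 16.9 CPM in the others. *Lox*, a collagen cross-linking enzyme, was at 285 CPM against 5.96, 12.4 and 11.5 CPM. In none of these 3 was WT replicate 2 above both *Hsf1* null mice, and without WT replicate 1 their log2 fold changes were -0.75, -0.30 and -1.01. *Hsf1* null replicate 2 had no count for 6 of 12 markers of fat cells and a low level of *Cfd*. This gene, which encodes the adipocyte protein adipsin, was at 120.5, 39.3, 36.1 and 0.719 CPM. The part that these libraries have in the differences between genotypes was tested only by leaving each of them out, and values without WT replicate 1, or without another mouse, are given beside many of the results they change.

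Across the tested genes, the highest Pearson correlation of log2 CPM among the 6 pairs of libraries joined the genotypes: it was 0.966 between WT replicate 2 and *Hsf1* null replicate 1. It was 0.951 between the WT mice and 0.954 between the *Hsf1* null mice, and the lowest, 0.930, was between WT replicate 1 and *Hsf1* null replicate 2. These correlations run across genes, which are not independent replicates. The median absolute log2 difference of a gene was 0.321 between the WT mice, 0.415 between the *Hsf1* null mice, and 0.307 between WT replicate 2 and *Hsf1* null replicate 1.

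*Hsf1* itself (ENSMUSG00000022556, GRCm38 chromosome 15, 76477422 to 76501913) was at 40.5, 36.5, 13.96 and 11.9 CPM, from 413, 92, 170 and 33 counts. Both *Hsf1* null libraries were below both WT libraries, and neither was at 0. The log2 fold change was 1.57 (SE 0.30, n = 2 mice a genotype), with an adjusted p of 0.775 from edgeR's quasi-likelihood test with Benjamini-Hochberg adjustment and 0.0335 from DESeq2. Over all alternatives the adjusted p lay between 0.0335 and 1.0. In each library the level of the targeted gene was on the side of its labelled genotype.

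With edgeR, 0 of 14371 genes (0.0%) passed an adjusted p of 0.05 and an absolute log2 fold change of 1. At an unadjusted p under 0.05, 904 genes (6.29%) were counted, 565 of them higher in WT (3.93%) and 339 lower (2.36%). DESeq2 at the same thresholds called 18 genes (0.125%), 12 higher in WT (0.0835%) and 6 lower (0.0418%). The smallest adjusted p from edgeR was 0.140, the median log2 fold change over all tested genes was 0.01, and 1230 genes had an absolute log2 fold change above 1. Both WT mice were above both *Hsf1* null mice in 2646 genes (18.4%) and below them in 2681 (18.7%). With 2 mice against 2, an exact permutation test of a single gene cannot give a two-sided p below 0.333.

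The genes with small p-values depended on which mice were in the fit, and the share kept was lowest without WT replicate 1 in both directions. Of the 565, 207 were more than 1 log2 unit higher in this library than in each of the other 3, and in 77 the genotypes overlapped. With WT replicate 1 left out, 139 genes were higher in WT at an unadjusted p under 0.05, and 99 of these were among the 565 (17.5% of them). In the other direction, 140 genes were lower in WT without this library, 76 of them among the 339 (22.4%), and in all 339 the genotypes did not overlap. With WT replicate 2, *Hsf1* null replicate 1 or *Hsf1* null replicate 2 left out, 72.0%, 40.9% and 36.6% of the 565 and 45.7%, 62.2% and 37.5% of the 339 were again at such a p in the same direction. With WT replicate 2 left out, edgeR called 17 genes, 16 higher and 1 lower in WT, and *Slc15a2* and *Fscn1* were the 2 that DESeq2 also called. *Xist*, *H19*, *Igf2*, *Dlk1* and *Lox* were among these 17.

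**Figure D1:**
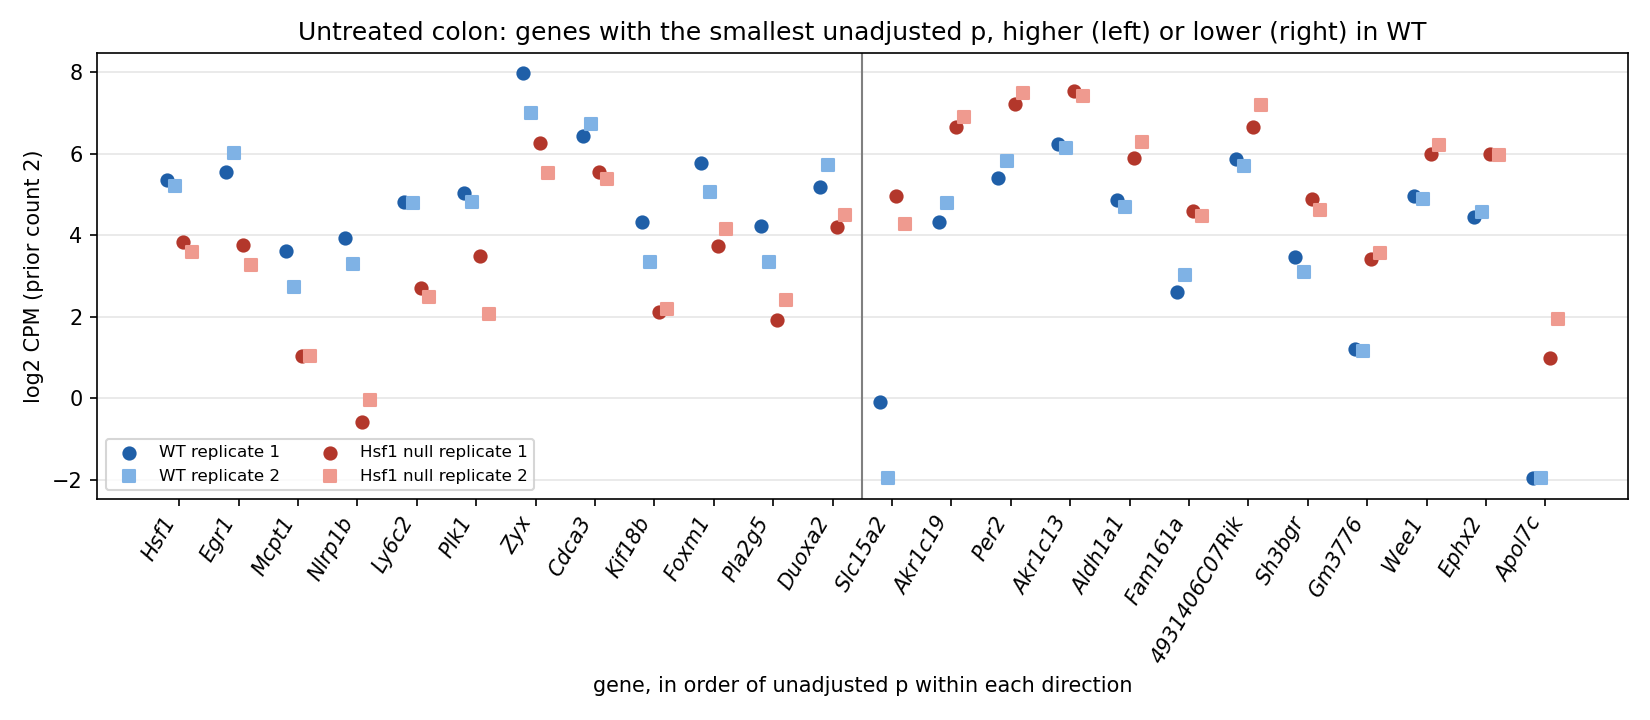
Log2 CPM (prior count 2) of the 12 genes in each direction with the smallest unadjusted p, among genes without overlap between genotypes and with an absolute log2 fold change above 1 and a mean of at least 1 CPM. Each point is 1 mouse, and both WT mice lie above both *Hsf1* null mice on the left and below them on the right, which the choice of genes fixes.

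Among the genes lower in WT, the smallest p-values belonged to a peptide transporter, enzymes that act on steroids, aldehydes and lipids, and a component of the circadian clock. *Slc15a2*, the high-affinity peptide transporter PEPT2, was at 0.686, 0, 31.2 and 19.05 CPM. It was near 0 in both WT mice, with a log2 fold change of -5.60 (SE 0.68). The WT mice had 7 counts, all in WT replicate 1, and without that library the fitted value was -10.57, which depends on the prior count because no WT count is left. *Akr1c19*, an aldo-keto reductase, was at 19.8, 27.4, 102 and 119 CPM, and its neighbour on chromosome 13, *Akr1c13*, at 75.6, 70.3, 186 and 171 CPM. Both were lower in both WT mice, with log2 fold changes of -2.24 (SE 0.31) and -1.29 (SE 0.22). Since aldo-keto reductases of this family have similar sequences, reads may have been assigned between them, and which member differed is uncertain. DESeq2 called *Slc15a2*, *Akr1c19*, *Akr1c13* and *Per2*, and its adjusted p for *Akr1c19* was 5.73e-06, in a range over all alternatives of 5.73e-06 to 1.0.

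*Aldh1a1*, which makes retinoic acid from retinaldehyde, was at 28.7, 25.8, 59.5 and 77.6 CPM. *Ephx2*, the soluble epoxide hydrolase, was at 21.6, 23.4, 63.3 and 62.2 CPM. In both genes the mice of a genotype lay close together and the genotypes did not overlap, and the log2 fold changes were -1.32 (SE 0.27) and -1.48 (SE 0.36). *Fam161a*, which encodes a protein of the cilium base, was at 5.88, 7.94, 23.9 and 21.9 CPM, and *Wee1*, a kinase that holds back entry into mitosis, at 30.9, 29.4, 63.1 and 73.7 CPM. Without overlap and lower in WT were also *4931406C07Rik* (-1.15, SE 0.26), *Sh3bgr* (-1.47, SE 0.34) and *Gm3776* (-2.42, SE 0.56). *Apol7c* completes the 12 genes of this direction and is described with the other neighbours of *Hsf1*. None of these genes passed edgeR's adjusted test at day 0.

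*Car1*, the carbonic anhydrase that colonocytes use in the exchange of ions, was lower in WT by DESeq2's call. *Car1* was at 783, 1549.5, 3644 and 3808 CPM, so that WT replicate 1 was the lowest and the *Hsf1* null mice lay close together. Its log2 fold change was -1.68 (SE 0.49), and -1.27 without WT replicate 1.

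Among the genes higher in WT, apart from *Hsf1*, were genes of early transcription, mitosis and innate immunity. *Egr1*, a transcription factor induced within minutes by growth signals, was at 46.9, 65.1, 13.4 and 9.34 CPM. Its log2 fold change was 2.25 (SE 0.44), and 2.48 without WT replicate 1. *Nlrp1b*, an inflammasome sensor, was at 15.1, 9.53, 0.411 and 0.719 CPM, and its counts were 154, 24, 5 and 2. Both *Hsf1* null mice were near 0, and the log2 fold change was 4.63 (SE 0.94). *Mcpt1*, a protease of mucosal mast cells, was at 11.96, 6.35, 1.81 and 1.80 CPM (2.41, SE 0.48), and reads may be shared with related mast cell proteases. *Zyx*, a protein of focal adhesions, was at 252, 128, 77.4 and 45.6 CPM (1.62, SE 0.35), and *Pla2g5*, a secreted phospholipase, at 18.5, 9.93, 3.53 and 5.03 CPM (1.83, SE 0.42). In these last 3 genes WT replicate 1 was the highest library, and the genotypes did not overlap. Without it the log2 fold changes were 1.81, 1.05 and 1.27.

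DESeq2 also called *Loxl1*, *Cd177*, *Igfbp2*, *Slit2* and *Fscn1* higher in WT. *Igfbp2*, a binding protein of insulin-like growth factors, was at 30.6, 19.5, 5.01 and 2.87 CPM (2.60, SE 0.64), and at 2.22 without WT replicate 1. *Slit2*, a guidance protein, was at 54.7, 8.73, 5.42 and 1.80 CPM, and *Fscn1*, which bundles actin, at 82.4, 13.5, 11.3 and 5.75 CPM. WT replicate 1 was far above the other 3 libraries in both. Without it, the log2 fold change of *Slit2* moved from 3.02 to 1.15, that of *Fscn1* from 2.45 to 0.59, and that of *Loxl1*, a cross-linking enzyme of elastic fibres, from 2.13 to 1.20. *Cd177*, a surface protein known from neutrophils, was at 333, 182, 102 and 89.1 CPM (1.43, and 0.92 without WT replicate 1).

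The heat shock chaperones, the genes that HSF1 is best known to activate, differed little. Of 33 listed, 32 were in the table and 31 were tested, and 21 were higher and 10 lower in WT, with a median log2 fold change of 0.14 beside 0.01 over all tested genes. Of the 31, 12 were higher and 2 lower in WT without overlap between genotypes, and at an unadjusted p under 0.05 there were 3 higher and 0 lower. Over all tested genes, 18.4% were higher and 18.7% lower without overlap, and 3.93% higher and 2.36% lower at that p. The summed level was 3950.2, 4019, 3299 and 2878 CPM, highest in the WT mice. The median was 0.34 without WT replicate 1, when 25 of the 31 were higher in WT. It was -0.04 without WT replicate 2 and 0.26 without *Hsf1* null replicate 2, and 0.25 after thinning to the smallest library.

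The chaperones with the most RNA were *Hsp90ab1* and *Hspa8*, which fold client proteins in the cytosol without heat shock. *Hsp90ab1* was at 1460.3, 1575, 1369 and 880.4 CPM (0.43, SE 0.32), and *Hspa8* at 631, 594, 474 and 452 CPM (0.40, SE 0.31). Both WT mice were above both *Hsf1* null mice in both genes, and for *Hsp90ab1* the value was 0.78 without *Hsf1* null replicate 1 and 0.15 without *Hsf1* null replicate 2. The other genes named here from this list were chosen after their values were seen. *Hspb1*, a small heat shock protein that holds unfolded proteins, was at 58.6, 93.7, 41.6 and 29.8 CPM (1.07, SE 0.41), and *Bag3*, its partner in clearing them, at 55.9, 77.8, 49.9 and 38.8 CPM (0.57, SE 0.25). *Hsph1*, a nucleotide exchange factor of HSP70, was at 20.3, 20.2, 10.6 and 11.5 CPM (0.88, SE 0.49). WT replicate 2 was the highest library for *Hspb1* and *Bag3*, whose values without it were 0.68 and 0.30, and for *Hsph1* the mice of a genotype were nearly equal.

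The heat-inducible HSP70 genes were not higher in untreated WT colon. *Hspa1a* was at 7.15, 13.1, 12.6 and 11.1 CPM (-0.30, SE 0.78), and *Hspa1b* at 12.6, 16.7, 18.6 and 20.8 CPM (-0.44, SE 0.72). Their coding sequences are nearly the same, so reads may be shared between them. *Hspa1a* turned to 0.70 when all libraries were thinned to the smallest, and to 0.14 without WT replicate 1, when *Hspa1b* was at -0.23. By family, 5 of 6 small heat shock proteins tested were higher in WT with a median of 0.40, 6 of 9 cochaperones with a median of 0.27, and 3 of 7 HSP70 family members with a median of -0.01. The small heat shock proteins had a median of 0.67 without *Hsf1* null replicate 1, the cochaperones of 0.17 without *Hsf1* null replicate 1 and 0.16 without *Hsf1* null replicate 2, and the HSP70 family lay between -0.20 (without *Hsf1* null replicate 1) and 0.26 (without *Hsf1* null replicate 2). *Dnajb1*, the J-domain partner of HSP70, was at 63.4, 89.7, 51.8 and 50.7 CPM (0.57, SE 0.30, and 0.29 without WT replicate 2). *Serpinh1*, the collagen chaperone of the endoplasmic reticulum, was at 381, 69.9, 35.5 and 47.8 CPM, so that its 2.46 (SE 0.65) rested on WT replicate 1 and was 0.76 without it.

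The relatives of HSF1 and other chaperone systems showed small differences. *Hsf2*, a related factor that can form mixed trimers with HSF1, was at 12.7, 13.5, 19.5 and 22.6 CPM (-0.68, SE 0.37, and -0.24 after thinning). *Hsbp1*, which binds the trimer of HSF1, was at 195, 279.9, 291 and 309 CPM (-0.34, SE 0.25). Both were lower in both WT mice, and for *Hsbp1* the value was -0.10 without WT replicate 1 and -0.64 without WT replicate 2. Of the chaperones of the endoplasmic reticulum, 17 of 21 were higher in WT with a median of 0.17, which was -0.01 without WT replicate 1 and 0.36 without *Hsf1* null replicate 2. Of the 8 subunits of the TRiC chaperonin, which folds actin and tubulin, 6 were lower in WT with a median of -0.16, and of 31 proteasome subunits 21 were lower with a median of -0.08, which was -0.00086 without WT replicate 1 and -0.22 without WT replicate 2.

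Promoters of these chaperones were searched for the heat shock element, because it is the sequence that HSF1 reads. Promoter sequences are RefSeq's for GRCm38.p6. Their window was measured in 22862 genes with a single promoter. In 17087 of these it ran from 250 bases before to 50 bases from the start of the gene on. Genes with several promoters, such as *Hsph1*, were not measured. The motif searched was GAANNTTCNNGAA on both strands (TTCNNGAANNTTC on the other), where matches may overlap. It was present in 5 of the 26 tested chaperones with a promoter sequence (19.2%), in 59 of 10890 tested genes (0.542%) and in 198 of all 32851 promoters (0.603%). The 5 genes were *Chordc1*, *Dnajb6*, *Hspd1*, *Hspe1* and *Hsph1*, and their median log2 fold change was 0.10. *Hspd1* and *Hspe1*, the mitochondrial chaperonin and its lid, are read in opposite directions from a shared stretch, so their matches are the same bases. *Hspd1* was at 83.2, 129, 75.8 and 115 CPM, *Hspe1* at 102, 187, 144 and 138 CPM, and *Chordc1*, a cochaperone of HSP90, at 21.9, 24.6, 22.3 and 37.0 CPM. The genotypes overlapped in all 3. The promoters of 3 of these genes follow, 5′ to 3′ on the strand of the gene, at chr1:55087883-55088182 for *Hspd1* (minus strand), chr5:149636266-149636565 for *Hsph1* (minus strand) and chr9:18292017-18292316 for *Chordc1* (plus strand), with the bases of all matches in capitals. They are shown because *Chordc1* held 3 matches and *Hspd1* 2, and because *Hsph1*, with 1 match, was the one of the 5 genes in which the genotypes did not overlap. A match is a description of letters and does not show binding.
Hspd1: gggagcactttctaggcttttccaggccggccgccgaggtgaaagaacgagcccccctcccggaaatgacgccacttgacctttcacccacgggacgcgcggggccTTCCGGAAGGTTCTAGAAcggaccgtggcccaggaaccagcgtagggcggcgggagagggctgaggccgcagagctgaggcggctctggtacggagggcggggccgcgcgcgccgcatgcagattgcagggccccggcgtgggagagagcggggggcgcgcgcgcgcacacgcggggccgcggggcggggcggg
Hsph1: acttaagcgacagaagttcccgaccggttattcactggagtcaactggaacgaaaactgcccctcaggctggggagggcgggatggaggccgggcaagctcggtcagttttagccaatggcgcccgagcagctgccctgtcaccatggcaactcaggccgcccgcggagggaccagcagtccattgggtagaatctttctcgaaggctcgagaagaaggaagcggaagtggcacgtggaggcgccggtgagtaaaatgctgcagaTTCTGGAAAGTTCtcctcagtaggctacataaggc
Chordc1: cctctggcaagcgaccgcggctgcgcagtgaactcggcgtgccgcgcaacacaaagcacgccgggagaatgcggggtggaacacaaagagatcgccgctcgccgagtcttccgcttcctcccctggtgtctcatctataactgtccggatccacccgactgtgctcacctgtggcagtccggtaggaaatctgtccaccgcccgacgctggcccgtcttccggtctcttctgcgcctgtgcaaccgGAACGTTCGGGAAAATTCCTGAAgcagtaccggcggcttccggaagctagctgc

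Genes of the circadian clock held several of the smallest p-values of the comparison. All 19 listed were tested, and 13 were lower and 6 higher in WT, with a median log2 fold change of -0.51. Of the 19, 8 were lower and 3 higher without overlap, and 6 were lower and 2 higher at an unadjusted p under 0.05. Over all tested genes, 18.7% were lower and 18.4% higher without overlap, and 2.36% lower and 3.93% higher at that p. The median was -0.41 without WT replicate 1 and -1.01 without *Hsf1* null replicate 2, and -0.20 without *Hsf1* null replicate 1. The labels do not give the time of day at which each colon was taken.

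*Per2*, a repressor of the clock's own activators, was at 42.2, 56.8, 149 and 181 CPM. Both *Hsf1* null mice were far above both WT mice, with a log2 fold change of -1.75 (SE 0.25) and an adjusted p of 0.190 from edgeR and 8.66e-05 from DESeq2, in a range over all alternatives of 8.66e-05 to 1.0. The other clock genes named here, apart from *Nr1d1*, *Tef* and *Bhlhe40*, were chosen after their values were seen. *Per3*, another repressor, was at 46.7, 58.8, 135 and 103 CPM (-1.18, SE 0.35), *Cry1*, the partner of the PER proteins, at 6.86, 3.97, 14.4 and 18.3 CPM (-1.52, SE 0.46), and *Hlf*, an output factor, at 8.23, 11.5, 22.7 and 30.5 CPM (-1.45, SE 0.49). *Tef*, of the same family as *Hlf*, was at 146, 198, 362 and 234 CPM (-0.80, SE 0.34). All of these were lower in both WT mice, and for *Tef* the value was -0.45 without *Hsf1* null replicate 1.

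The activators of the clock went the other way or did not separate. *Npas2*, which pairs with BMAL1 in place of CLOCK, was at 31.9, 50.4, 17.7 and 9.70 CPM (1.53, SE 0.40), and *Clock* at 107, 109, 89.0 and 124 CPM. *Nr1d1*, the repressor REV-ERBα, was at 378, 565, 319 and 89.1 CPM (1.20, SE 0.67). *Hsf1* null replicate 2 was far below the other 3 libraries for *Nr1d1*, while replicate 1 was close to the WT mice, and the value was 2.4 without replicate 1 and 0.56 without replicate 2. The *Hsf1* null mice also differed from each other in *Bhlhe40*, a repressor under the control of the clock, which was at 335, 513, 695 and 202 CPM. *Ciart*, a further repressor, was at 19.2, 44.9, 113 and 20.8 CPM. In *Bhlhe40* the *Hsf1* null replicates lay on either side of the WT mice, and in *Ciart* replicate 1 was above both WT mice and replicate 2 between them.

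Genes of cell division were higher in WT. Of 22 genes of replication and mitosis, 21 were higher, and the median was 0.54. Without overlap, 12 were higher and 0 lower, beside 18.4% and 18.7% of all tested genes. WT replicate 1 was the highest library in 19 of the 22, and without it 20 were higher with a median of 0.24. The median was 0.33 without *Hsf1* null replicate 1. The summed level was 1293, 1033, 696 and 965 CPM, and the most abundant gene was *Mki67*, a marker of dividing cells, at 311, 264, 153 and 230.0 CPM (0.59, SE 0.34, and 0.32 without *Hsf1* null replicate 1). *Plk1*, a kinase of mitosis, was at 32.8, 27.8, 10.9 and 3.95 CPM (1.91, SE 0.41, and 2.94 without *Hsf1* null replicate 1), and was called by DESeq2. *Foxm1*, a transcription factor of mitotic genes, was at 54.9, 33.0, 13.1 and 17.6 CPM (1.56, SE 0.35), *Kif18b*, a kinesin of the spindle, at 19.7, 9.93, 4.11 and 4.31 CPM (1.86, SE 0.41), and *Cdca3*, which acts in the degradation of cell cycle proteins, at 86.0, 106, 47.1 and 41.3 CPM (1.11, SE 0.24). In each of these the WT mice lay above the *Hsf1* null mice without overlap. Stem cell markers did not follow: of 11 tested genes of the stem and proliferation list, 5 were higher and 6 lower in WT, with a median of -0.06, which was -0.13 without WT replicate 2 and 0.15 without *Hsf1* null replicate 2. Fewer dividing cells and less RNA per cell cannot be told apart in whole tissue, here or for any other cell type below.

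**Figure D2:**
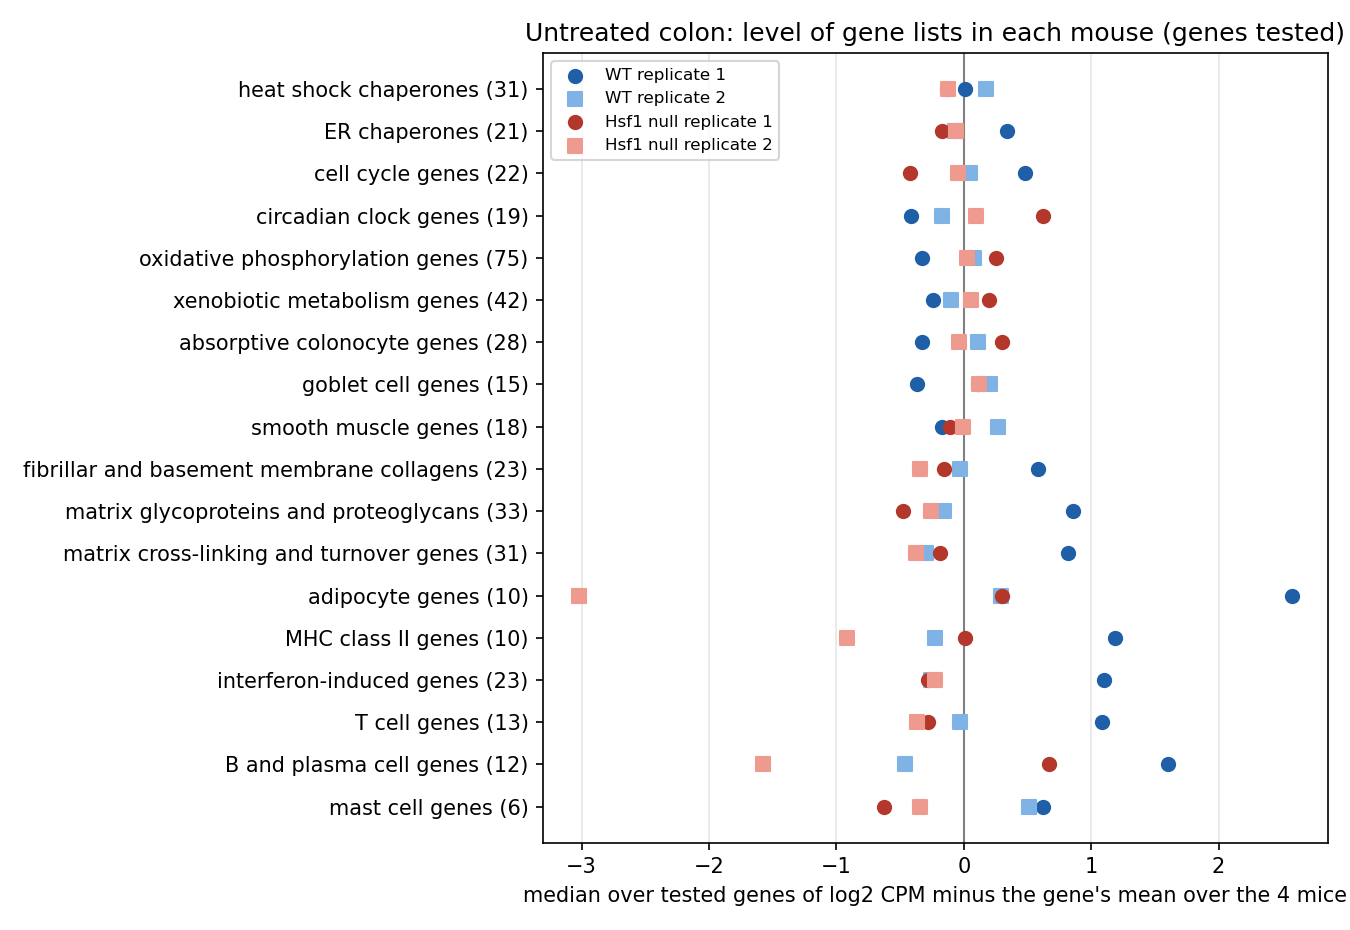
Median level of gene lists in each untreated mouse, as log2 CPM minus the mean of each gene over the 4 mice, with the number of genes tested in parentheses. Each point is 1 mouse, WT replicate 1 is the highest for the matrix, adipocyte, MHC class II, interferon and lymphocyte lists, and *Hsf1* null replicate 2 is the lowest for adipocyte genes.

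Genes of the absorptive epithelium were mostly lower in WT. Of 28 markers of absorptive colonocytes, 22 were lower and 6 higher, with a median of -0.22, and 9 were lower and 1 higher without overlap, beside 18.7% and 18.4% of all tested genes. The summed level was 29700.3, 40584, 50456 and 40695 CPM, of which *Lypd8*, which keeps bacteria off the epithelium, made up 10068, 10944, 14998 and 11525 CPM. WT replicate 1 was the lowest library and *Hsf1* null replicate 1 the highest in both. Without WT replicate 1 the median was -0.03 and 15 genes were lower. The median was -0.55 without WT replicate 2 and -0.04 without *Hsf1* null replicate 1. For the 13 genes of ion and water transport the median was -0.61, with 10 lower and 3 higher. It was -0.29 without WT replicate 1, with 9 lower, and -0.41 without *Hsf1* null replicate 1. *Slc26a3*, the chloride and bicarbonate exchanger of the colon surface, was at 449, 813, 1253 and 1829 CPM (-1.29, SE 0.46), and *Slc12a2*, the chloride uptake carrier of the crypt, at 271, 274, 452 and 479 CPM (-0.77, SE 0.29). For *Slc12a2* the value was also -0.77 without WT replicate 1, and for *Slc26a3* it was -0.92. Both were chosen after their values were seen. Goblet cell genes did not separate the genotypes: 10 of 15 were lower in WT, with a median of -0.19, and 0.16 without WT replicate 1 and -0.57 without WT replicate 2.

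Genes of oxidative phosphorylation, which supplies most of the energy of colonocytes, were mostly lower in WT. Of 75 tested, 61 were lower and 14 higher, 27 were lower and 1 higher without overlap, and 14 were lower and 0 higher at an unadjusted p under 0.05. Over all tested genes, the shares were 18.7% and 18.4% without overlap, and 2.36% and 3.93% at that p. The median was -0.16 for complex I, -0.16 for complex II, -0.13 for complex III, -0.17 for complex IV and -0.27 for complex V, and no test compared the complexes. Without WT replicate 1 these medians lay between -0.02 (complex III) and 0.04 (complex IV). WT replicate 1 was the highest library for 0 of the 75 genes. Without it, 39 of 75 were higher in WT and the median was 0.02, and without WT replicate 2 it was -0.46, against -0.17 with all mice. It was -0.33 without *Hsf1* null replicate 2. *Uqcrb*, a subunit of complex III chosen after its values were seen, was at 144, 162, 283 and 324 CPM, and *Cox7a2*, of complex IV and also chosen so, at 297, 303, 499 and 657 CPM. In these 2 genes the WT mice were close to each other and below both *Hsf1* null mice.

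Enzymes that clear drugs and other foreign compounds were lower in WT in 29 of 42 tested genes, with a median of -0.12, and 14 were lower and 1 higher without overlap, beside 18.7% and 18.4% of all tested genes. Without WT replicate 1 the median was -0.26 and 26 were lower, and without WT replicate 2 it was -0.39. *Sult1b1*, a sulfotransferase chosen after its values were seen, was at 178, 187, 294 and 474 CPM (-1.07, SE 0.27). *Ugt2b34*, which adds glucuronic acid, was at 236, 315, 402 and 617 CPM (-0.89, SE 0.37). *Hsf1* null replicate 2 was the highest library for both genes, and without it the values were -0.69 and -0.54. *Cyp2b10*, a cytochrome P450 induced by foreign compounds, had 2 counts over the WT mice and 55 over the *Hsf1* null mice. Of the 55, 51 were in *Hsf1* null replicate 1 and 4 in replicate 2, at 4.19 and 1.44 CPM. The ratio in CPM was 23.4, with a 95% interval of 6.17 to 198 that covers counting error only, as do all bounds given here, and the gene had too few counts to be tested without *Hsf1* null replicate 1. Members of the cytochrome P450 and glucuronosyltransferase families have similar sequences, and reads may be shared between them.

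Genes for oxidants and antimicrobial proteins of the epithelium differed by member. The list was split, with 9 of 17 higher and 8 lower in WT, a median of 0.19 and 4 higher and 0 lower at an unadjusted p under 0.05, beside 3.93% and 2.36% of all tested genes. The median was -0.24 without WT replicate 1 and -0.17 with DESeq2, and it was 0.72 without *Hsf1* null replicate 1. *Duoxa2*, which matures the oxidase DUOX2, was at 36.4, 52.8, 18.2 and 22.3 CPM (1.14, SE 0.27), and *Duox2* itself, which makes hydrogen peroxide at the surface, at 79.4, 84.6, 45.2 and 49.6 CPM (0.79, SE 0.23). Both partners were higher in both WT mice, and remained so without WT replicate 1, at 1.40 and 0.84. *Nos2*, which makes nitric oxide, was at 19.8, 10.7, 5.26 and 2.52 CPM (1.88, SE 0.52), and *Pla2g2a*, a secreted phospholipase that kills bacteria, at 24.8, 28.6, 7.31 and 10.4 CPM (1.63, SE 0.56). *Duox2*, *Nos2* and *Pla2g2a* were chosen after their values were seen. *Mptx1*, a pentraxin of the colon with close paralogs, was at 142, 445, 716 and 596 CPM, lowest in WT replicate 1.

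Immediate early genes were higher in WT in 15 of 19, with a median of 0.54. The median was 0.50 without WT replicate 1, 0.29 without WT replicate 2 and 0.84 without *Hsf1* null replicate 1. Of the 19, 8 were higher and 0 lower without overlap, beside 18.4% and 18.7% of all tested genes. Their summed level was 2458, 3040.3, 2344 and 1655 CPM, and the most abundant gene was *Klf4*, a factor of differentiated epithelium, at 577, 906, 485 and 535 CPM. *Egr1* was the member with the smallest p. *Fos*, of the same class, was at 32.9, 62.3, 23.6 and 79.8 CPM, so that the genotypes overlapped. *Jun* was at 159, 152, 168 and 46.7 CPM, with *Hsf1* null replicate 2 low and replicate 1 level with the WT mice.

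Genes of the extracellular matrix were higher in WT, and highest in WT replicate 1. Of 33 matrix glycoproteins and proteoglycans, 27 were higher and 6 lower, with a median of 0.95, and 13 were higher and 0 lower at an unadjusted p under 0.05, beside 3.93% and 2.36% of all tested genes. WT replicate 1 was the highest library for 24 of the 33, and without it the median was 0.10. The summed level was 6115, 2474, 2082 and 2822 CPM. The glycoproteins had a median of 1.08 and the proteoglycans of 0.02, and 0.10 and -0.25 without WT replicate 1. Of 23 collagens of fibrils and basement membranes, 19 were higher, with a median of 0.59 and a summed level of 3813, 1762, 1444 and 1362 CPM. Without overlap, 14 collagens were higher and 1 lower, beside 18.4% and 18.7% of all tested genes. WT replicate 1 was the highest library for 19 of the 23, and without it 17 were higher with a median of 0.22. Of 31 genes of cross-linking and turnover, 27 were higher, with a median of 0.70, which was -0.02 without WT replicate 1 and 1.14 without WT replicate 2. The 11 laminin chains had a median of 0.35, which was 0.03 without WT replicate 1 and 0.21 without *Hsf1* null replicate 1.

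*Col1a1*, the main chain of type I collagen, was at 1065, 166, 139.8 and 108 CPM, and *Fn1*, which encodes fibronectin, at 1146, 465, 382 and 365 CPM. *Sparc*, a collagen-binding protein, was at 1074, 253, 215 and 258 CPM. In each of the 3 genes WT replicate 1 was far above the rest, and WT replicate 2 was within or just above the range of the *Hsf1* null mice. The log2 fold changes were 2.31 (SE 0.75), 1.11 (SE 0.41) and 1.49 (SE 0.62), and 0.42, 0.32 and 0.10 without WT replicate 1. *Col3a1*, the chain of type III collagen, did not follow this pattern, at 378, 331, 216 and 299 CPM (0.46, SE 0.47), with 0.25 without *Hsf1* null replicate 1 and 0.71 without *Hsf1* null replicate 2. The fibroblast markers were split, with 12 of 19 higher in WT and a median of 0.25, which was -0.08 without WT replicate 1 and 0.63 without *Hsf1* null replicate 2. Their summed level was 4702, 2137, 1989.6 and 2566 CPM, and *Gsn* was the most abundant on average, while *Col1a1* was above it in WT replicate 1. Of 22 genes of the TGF-beta pathway, 18 were higher with a median of 0.41, and 14 without WT replicate 1 with a median of 0.14. The median was 0.21 after thinning to the smallest library.

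Markers of immune cells were likewise highest in WT replicate 1. All 10 genes of MHC class II, which present antigen, were higher in WT with a median of 1.11, and WT replicate 1 was the highest library in all 10. *Cd74*, the invariant chain, was at 1543, 751, 597 and 368 CPM (1.25, SE 0.57, and 0.64 without WT replicate 1). The median of the list was 0.04 without WT replicate 1 and 0.68 without *Hsf1* null replicate 2. Of 23 interferon-induced genes, 22 were higher with a median of 0.83, which was 0.03 without WT replicate 1, 1.39 without WT replicate 2 and 0.47 without *Hsf1* null replicate 1. All 13 T cell genes tested were higher, with a median of 0.97, which was 0.16 without WT replicate 1 and 1.78 without *Hsf1* null replicate 1, at summed levels of 78.9, 29.8, 34.9 and 19.8 CPM. *Cxcl10*, an interferon-induced chemokine that draws T cells and was chosen after its values were seen, did not follow WT replicate 1: it was at 5.78, 11.5, 0.657 and 0.719 CPM, near 0 in both *Hsf1* null mice.

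All 12 B and plasma cell genes tested were higher in WT, with a median of 0.84. The median was -0.40 without WT replicate 1, 1.46 without WT replicate 2, 2.71 without *Hsf1* null replicate 1 and 0.33 without *Hsf1* null replicate 2. Their summed level was 2136, 1750.0, 690.1 and 1455 CPM, of which *Jchain*, the joining chain of secreted antibodies, made up 1706, 1618, 471 and 1378 CPM. This sum does not stand for the other members: the median level over the 12 genes, as log2 CPM minus the mean of each gene, was 1.60, -0.46, 0.67 and -1.58, so that *Hsf1* null replicate 1 was above WT replicate 2 and *Hsf1* null replicate 2 was lowest. Without overlap, 3 were higher and 0 lower, beside 18.4% and 18.7% of all tested genes. Of 18 macrophage and dendritic genes, 12 were higher with a median of 0.51, which was -0.20 without WT replicate 1 and 0.87 without WT replicate 2, and the most abundant, *Lyz2*, was at 642, 179, 222 and 301 CPM. The neutrophil genes summed to 14.6, 5.96, 7.55 and 5.75 CPM, with *Ngp* at 0 in all 4 libraries. The part of immune cell content in the differences between genotypes was not tested.

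The 6 mast cell genes tested were all higher in WT, with a median of 1.68. The median was 1.19 without WT replicate 1, 1.02 without *Hsf1* null replicate 1, 0.91 in a fit of the untreated samples alone and 0.60 after thinning to the smallest library. Their summed level was 38.2, 40.9, 25.6 and 21.6 CPM. The most abundant, *Cma1*, a chymase of connective tissue mast cells, was at 21.7, 29.8, 22.2 and 17.6 CPM and overlapped between the genotypes. *Mcpt4* had 13 counts over the WT mice and 2 over the *Hsf1* null mice, a ratio of 7.64 with a 95% interval of 1.73 to 69.8. The defining markers *Cpa3*, *Tpsb2* and *Fcer1a* were at 0 or under 1.20 CPM in every library.

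All 10 adipocyte genes tested were higher in WT, with a median of 2.22, and 0.80 without WT replicate 1. Without *Hsf1* null replicate 1 the median was 6.55, where fitted values depend on the prior count, since several of these genes have no *Hsf1* null count left. The summed level was 966, 493, 421 and 248 CPM, and *Pck1*, which the epithelium also expresses, was the most abundant on average but not in WT replicate 1, at 132, 216, 158 and 165 CPM. *Hsf1* null replicate 2 had no count for 6 of the 12 markers, among them *Adipoq* and *Plin1*, which were at 3.04 and 2.46 CPM in *Hsf1* null replicate 1. WT replicate 2 and *Hsf1* null replicate 1 were alike in these markers, so that the difference between genotypes rested on the highest and the lowest library. The part of fat cell content in the other differences between genotypes was not tested.

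Muscle, vessel and nerve gave small differences. Of 18 smooth muscle genes, 13 were higher in WT with a median of 0.13, and all 18 without WT replicate 1 with a median of 0.28, but the median was -0.13 without WT replicate 2. Their summed level was 11450.0, 15177, 11559.5 and 11487 CPM. Of 13 endothelial genes, 9 were higher with a median of 0.17, and WT replicate 1 was the highest library in 9. Without WT replicate 1, 7 were higher and 6 lower with a median of 0.02, and the median was 0.03 without *Hsf1* null replicate 1 and 0.30 without *Hsf1* null replicate 2. *Plvap*, a protein of capillary walls, was at 40.6, 31.4, 21.8 and 14.01 CPM (0.98, SE 0.30, and 1.59 after thinning). Of 20 genes of enteric neurons, glia and pacemaker cells, 16 were lower in WT with a median of -0.25, and 10 of the 11 neuronal genes were among them. Without WT replicate 1, 12 of the 20 were lower with a median of -0.18, and 7 of the neuronal genes. The neuronal median was -0.26. It was -0.05 without *Hsf1* null replicate 1, where 7 were lower, and -0.48 without WT replicate 2, where 11 were lower. Enteroendocrine genes had a median of -0.05 over 11 genes, which was 0.35 without WT replicate 1 and -0.38 without WT replicate 2. Tight junction genes had a median of 0.09 over 18, which was 0.21 without WT replicate 1 and -0.13 without WT replicate 2.

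Further lists of metabolism, stress and cell types are given here with their medians. Several of these medians turned direction when a single mouse was left out. The median was 0.12 over 15 glycolysis genes, and lay between -0.29 (without *Hsf1* null replicate 2) and 0.51 (without *Hsf1* null replicate 1) with 1 mouse left out. It was -0.09 over 21 genes of fatty acid oxidation and ketogenesis, between -0.25 (without WT replicate 2) and 0.01 (without WT replicate 1). Over 16 antioxidant targets of NRF2 it was 0.04, between -0.15 (without WT replicate 1) and 0.16 (without *Hsf1* null replicate 1), and over 13 genes of metal handling -0.07, between -0.18 (without WT replicate 2) and 0.30 (without *Hsf1* null replicate 1). For 14 targets of p53 it was 0.53, and -0.12 without WT replicate 1, 0.27 without *Hsf1* null replicate 1 and 0.17 after thinning. It was 0.24 over 13 genes of MHC class I, between 0.13 (without *Hsf1* null replicate 2) and 0.48 (without *Hsf1* null replicate 1). Over 23 chemokines and cytokines it was 0.17, where 16 were higher and 6 lower, but 0 without WT replicate 1, where 11 were higher, and 0.52 without *Hsf1* null replicate 2. Of 77 cytosolic ribosomal protein genes, 5 were in the table, with a median of -0.47, which was -0.11 without WT replicate 1 and -0.72 without WT replicate 2. The median of 4 tuft cell genes was 0.59, that of 4 mesothelial genes 0.44 and that of 10 skeletal muscle genes 0.33, and without WT replicate 1 they were -0.45, 0.01 and 0.50. After thinning they were -0.20, -0.10 and 0.84, and the mesothelial median was 1.03 without *Hsf1* null replicate 1.

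The genes around *Hsf1* on chromosome 15 were examined as a group, because null and WT mice on a mixed background can differ in the strain origin of the segment that carries the targeted gene. Within 10 Mb, 246 genes other than *Hsf1* were tested, and 152 were higher and 93 lower in WT, with a median log2 fold change of 0.13, beside -0.00 on the rest of chromosome 15 (329 genes) and 0.01 on other chromosomes. Both WT mice were above both *Hsf1* null mice in 66 genes (26.8%) and below them in 34 (13.8%), beside 16.1% and 18.8% on the rest of the chromosome and 18.4% and 18.7% over all tested genes. An unadjusted p under 0.05 was reached by 31 genes (12.6%), by 29 on the rest of the chromosome (8.81%) and by 842 on other chromosomes (6.12%). The median was 0.08 within 2 Mb, 0.24 from 2 to 5 Mb and 0.10 from 5 to 10 Mb. Within this segment, *Hsf1* null replicate 1 exceeded replicate 2 by a median of 0.32, so that the *Hsf1* null mice differed from each other by more than the genotypes did. The median was 0.33 without *Hsf1* null replicate 1 and -0.04 without *Hsf1* null replicate 2.

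**Figure D3:**
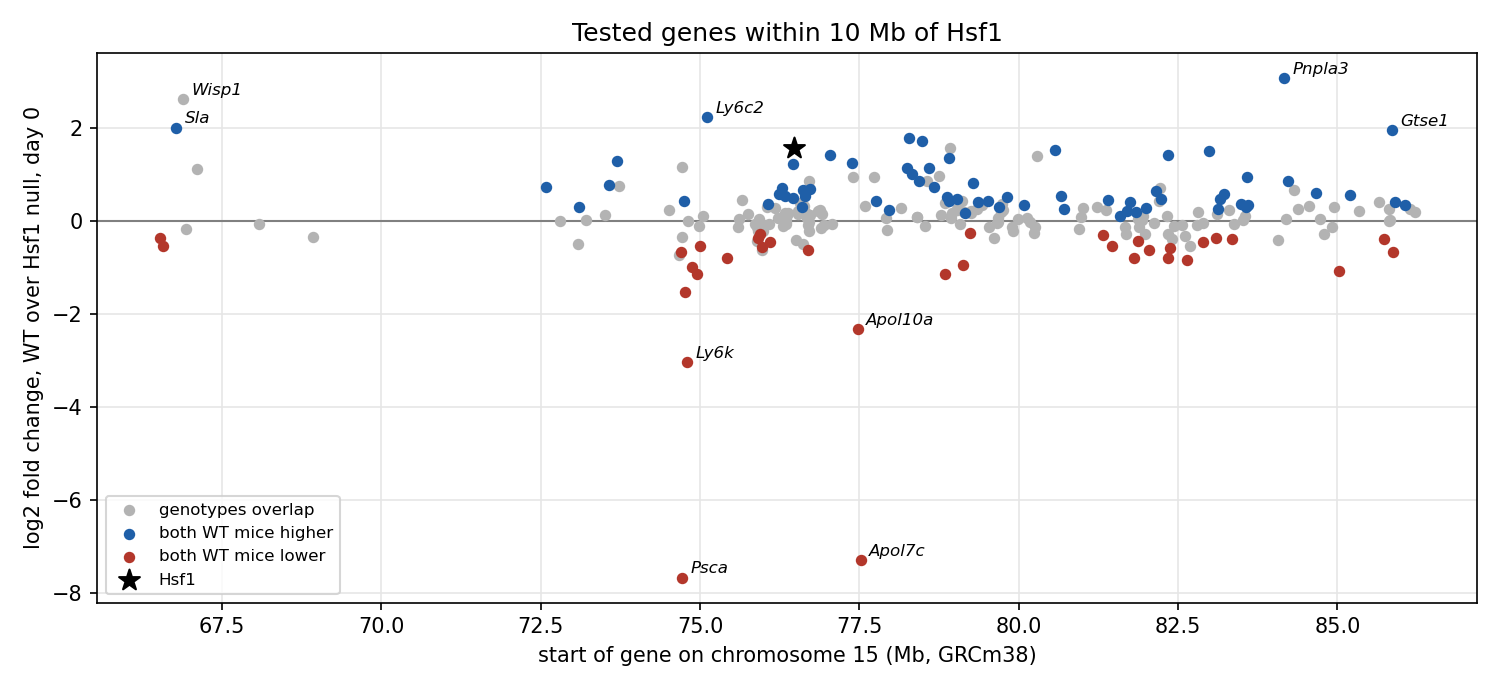
Log2 fold change at day 0 (WT over *Hsf1* null) of the tested genes within 10 Mb of *Hsf1*, by the start of each gene on GRCm38 chromosome 15. Each point is 1 gene, colored by whether the genotypes overlap, and *Psca* and *Apol7c*, at the bottom, have no count in either WT mouse, so their fitted values depend on the prior count and only lower bounds are given in the text.

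Close to *Hsf1*, the strongest differences lay in families of paralogs. *Psca*, a membrane protein of the LY6 family 1.76 Mb away, had no count in either WT mouse and 36 and 10 counts in the *Hsf1* null mice, and was at least 13.0-fold lower in WT against a floor of 3 counts over the group. *Apol7c*, an apolipoprotein L gene 1.02 Mb away, had 0, 0, 21 and 10 counts and was at least 8.79-fold lower. Both *Hsf1* null mice had reads of both genes and neither WT mouse did. *Ly6k*, 1.68 Mb away, had 4, 0, 33 and 6 counts. In the opposite direction, *Ly6c2*, a surface protein of monocytes and lymphocytes 1.37 Mb away, was at 27.8, 27.4, 6.24 and 5.39 CPM, with the mice of each genotype close together. Its log2 fold change was 2.22 (SE 0.47), and DESeq2 called it. *Ly6e*, which limits the entry of viruses into cells, was at 210.0, 88.9, 289 and 379.8 CPM (-1.15, SE 0.45, with -1.91 without WT replicate 1 and -0.69 without WT replicate 2), and *Ly6d* at 3.63, 1.99, 10.2 and 6.83 CPM (-1.52, SE 0.61). Of 12 genes of the LY6 and *Psca* list that were tested, 4 were higher and 7 lower in WT, with a median of -0.11, which was -0.45 without WT replicate 1, -0.02 without WT replicate 2 and -0.83 after thinning. For 7 tested apolipoprotein L genes, 5 were higher and 2 lower, with a median of 0.94, and -0.98 without WT replicate 1 and 0.36 after thinning. Reads of these families may be shared between members, so which member differed is uncertain.

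Further out, *Sh3bp1*, a regulator of small GTPases 2.4 Mb away, was at 13.7, 9.93, 5.26 and 3.95 CPM (1.34, SE 0.41), and *Ttll12*, 7.07 Mb away, at 52.3, 44.5, 26.6 and 23.7 CPM (0.94, SE 0.24). *Sla*, an adaptor of lymphocyte receptors 9.65 Mb away, was at 9.61, 7.15, 1.89 and 2.52 CPM (2.01, SE 0.61), and *Gtse1*, a protein of dividing cells 9.36 Mb away, at 31.9, 14.3, 5.83 and 6.47 CPM (1.96, SE 0.51, and 1.23 without WT replicate 1). All 4 were higher in both WT mice. Lower in both were *Ndufa6*, a subunit of complex I 5.85 Mb away, at 400.1, 658, 846 and 980.3 CPM (-0.79, SE 0.29, with -0.47 without WT replicate 1 and -1.21 without WT replicate 2), and *Nhp2l1*, a protein of the spliceosome 5.54 Mb away, at 59.2, 65.9, 90.4 and 103 CPM (-0.63, SE 0.24).

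The mice at day 15 give the same contrast in other animals, with no sample in common. Of the tested genes, 8975 (62.5%) had a log2 fold change of the same sign at both days, and Pearson's r of the fold changes was 0.33 across 14371 genes, which are not independent. Both WT mice were above both *Hsf1* null mice at both days in 1147 genes (7.98%), and below them at both days in 1155 (8.04%). Near *Hsf1*, within 10 Mb, these counts were 26 of 246 (10.6%) and 20 (8.13%). EdgeR called 455 genes (3.17%) between the genotypes at day 15, where it called 0 at day 0. The day 15 libraries held between 7379442 and 11097367 counts, while the shallow untreated libraries held 2553348 and 2675976. The part of depth in these calls was not tested. Whether genotype acted differently at the 2 days was tested by edgeR's interaction, which 1 gene passed (0.00696%).

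Of the genes named at day 0, several passed edgeR's test at day 15 in the same direction, and their day 15 log2 fold changes were as follows. *Ly6c2* was at 3.56 and *Pla2g5* at 2.14. *Akr1c19* was at -1.45, *Akr1c13* at -1.15 and *Per2* at -1.29. *Aldh1a1* was at -1.41, *Sh3bgr* at -3.02 and *Fam161a* at -2.26. *Ephx2* and *Wee1* were lower in both WT mice at day 15, at -1.27 and -0.51, and did not pass. Over the whole lists, 13 of 19 clock genes and 29 of 42 genes that clear foreign compounds had the same sign at both days, beside 62.5% of all tested genes. *Psca* and *Apol7c* were lower in both WT mice at day 15 as well, and both passed edgeR's test there. Further genes that passed in the same direction included *Hsf1* itself (2.10), *Ly6k* (-2.99), *Sla*, *Duoxa2* (1.36), *Plvap* (1.63) and *Tef* (-2.48). Of the other named neighbours of *Hsf1*, *Ttll12*, *Sh3bp1*, *Gtse1*, *Ndufa6*, *Nhp2l1*, *Ly6e* and *Ly6d* did not pass.

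Other genes had another value at day 15, and of those given next only *Slc15a2* passed edgeR's adjusted test of the difference between the days. *Egr1* had a log2 fold change of 0.13 at day 15 and *Igfbp2* of 0.23, and in both the genotypes overlapped. *Nlrp1b* had a log2 fold change of -2.11 at day 15 against 4.63 at day 0, so that its direction turned, with an interaction of -6.74 and an adjusted p for it of 0.210 from edgeR and 6.94e-06 from DESeq2. *Slc15a2* turned as well, from -5.60 to 5.49. The heat shock chaperones had a median of 0.57 at day 15 against 0.14 at day 0, and the clock genes -1.03 against -0.51. *Hspa1a* and *Hspa1b*, level or lower in untreated WT colon, had day 15 log2 fold changes of 2.25 and 2.35, with overlap between the genotypes. *Dnajb1* was at 1.62 at day 15 against 0.57, and passed the test there. *Nr1d1* was at -2.29 against 1.20.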

How the data were processed

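The deposited table gives, per the labels, raw counts from the authors, one count per gene and sample, after alignment to mm10 with STAR. The counting program and annotation are not given in the sources used here. Genes with a mean normalized count above 5 over all 8 samples were tested with edgeR 4.0.16 (R 4.3.3), with TMM normalization, 1 quasi-likelihood model of 4 groups and Benjamini-Hochberg adjustment. Calls needed an adjusted p under 0.05 together with a log2 fold change beyond 1 in size. Log2 CPM used a prior count of 2. Of 15859 symbols, 15276 matched the mouse annotation directly, 540 through RefSeq and 43 did not. The alternatives were DESeq2 1.42.0, its size factors in edgeR, no filter, filterByExpr, no fold threshold, the 4 untreated samples alone, a replicate block, counts thinned to the smallest library, and leaving out each untreated mouse. Intervals and floors cover counting error only, with a floor of 3 counts over the group and Clopper-Pearson intervals.

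The samples and gene lists were chosen with earlier results of these data known. Named genes were *Hsf1*; up to 3 tested members of each list with the highest CPM; the 12 genes in each direction with the smallest unadjusted p among those with an absolute log2 fold change above 1, a mean of at least 1 CPM and no overlap between genotypes; every gene that DESeq2 called; and the 5 in each direction with the smallest p within 10 Mb of *Hsf1*. Some genes that the rule names are left out of the text. Genes outside it were chosen after their values were seen: *Prac1*, *Cpa1*, *Ctrb1*, *Xist*, *Kdm5d*, *Ddx3y*, *H19*, *Igf2*, *Dlk1*, *Lox*, *Cfd*, *Hspb1*, *Bag3*, *Hsph1*, *Hspa1a*, *Hspa1b*, *Dnajb1*, *Serpinh1*, *Chordc1*, *Dnajb6*, *Hspd1*, *Hspe1*, *Per3*, *Cry1*, *Hlf*, *Npas2*, *Clock*, *Ciart*, *Slc26a3*, *Slc12a2*, *Uqcrb*, *Cox7a2*, *Sult1b1*, *Cyp2b10*, *Duox2*, *Nos2*, *Pla2g2a*, *Fos*, *Jun*, *Cxcl10*, *Ngp*, *Mcpt4*, *Cpa3*, *Tpsb2*, *Fcer1a*, *Adipoq* and *Plin1*.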

Additional observations from a re-analysis of the deposited data

Results flagged for a closer look

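*Slc15a2* differed between the days in its response to genotype. It had 7 and 0 counts in untreated WT mice and 380 and 53 in untreated *Hsf1* null mice, while the day 15 libraries held 131 and 149 counts (WT) and 1 and 3 counts (*Hsf1* null). All 7 counts of the untreated WT mice lay in WT replicate 1, the library that stood apart, and WT replicate 2 had none. Both WT mice were below both *Hsf1* null mice at day 0 and above them at day 15. The difference of the log2 fold changes, day 15 minus day 0, was 11.09 (SE 0.98), with an adjusted p of 0.00761 from edgeR's test of the interaction.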

How the results depend on the processing

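EdgeR's 0 calls (904 genes at an unadjusted p under 0.05) became 18 with DESeq2 and ranged from 0 to 17 when 1 mouse was left out, with the 17 reached without WT replicate 2. The lone mouse of a group is then assumed to vary like the other groups. With a replicate block in the 4 untreated samples alone, an alternative chosen after seeing the data, there were 17, of which 9 were among DESeq2's. The log2 fold change of *Hsf1* was 1.55 with DESeq2, where it passed the threshold, and between 1.47 and 1.70 with 1 mouse left out. Over all alternatives its lowest value was 1.08. The median of the heat shock chaperones was 0.25 after thinning and between -0.045 (without WT replicate 2) and 0.34 (without WT replicate 1) with 1 mouse left out, and that of the genes within 10 Mb of *Hsf1* between -0.045 (without *Hsf1* null replicate 2) and 0.33 (without *Hsf1* null replicate 1). Of the 51 other lists, the median moved by more than the spread between mice in 29 without WT replicate 1, 16 without WT replicate 2, 15 without *Hsf1* null replicate 1, 10 without *Hsf1* null replicate 2 and 13 after thinning.

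Some named genes turned direction when a single mouse was left out, and their log2 fold changes then lay in the ranges given here. Those that turned without WT replicate 1 were *Xist* (-6.73 to 6.68), *H19* (-0.75 to 10.94), *Igf2* (-0.30 to 3.96), *Lox* (-1.01 to 4.54), *Lyz2* (-0.54 to 1.28), *Hspa1a* (-0.76 to 0.14) and *Cela1* (-0.52 to 0.27). *Hspe1* (-0.48 to 0.41), *Hoxb13* (-0.34 to 0.57), *Gsn* (-0.36 to 0.054) and *Pck1* (-0.31 to 0.42) turned without WT replicate 2. Without *Hsf1* null replicate 1, *Ciart* turned (-1.85 to 0.59), and without *Hsf1* null replicate 2, *Chordc1* (-0.68 to 0.050), *Kdm5d* (-0.23 to 0.12) and *Jun* (-0.11 to 1.74). *Hspd1* (-0.21 to 0.48) and *Clock* (-0.20 to 0.28) turned without WT replicate 2 or *Hsf1* null replicate 1, *Dnajb6* (-0.34 to 0.47) without either replicate 2, *Bhlhe40* (-0.71 to 1.07) and *Cpa3* (-2.48 to 4.37) without either replicate 1, and *Fos* (-0.77 to 0.99) without WT replicate 1 or *Hsf1* null replicate 2. After thinning the value was 0.70 for *Hspa1a*, -0.052 for *Hspe1*, 0.12 for *Cela1* and -0.14 for *Cma1*. With the replicate block over 8 samples it was -0.055 for *Hspe1* and 0.14 for *Bhlhe40*, and with the block in the untreated samples alone -0.042 for *Hspe1*, 0.13 for *Bhlhe40* and 0.059 for *Fos*. The cause was not tested. Total counts of 2553348 and 2675976 in the shallow libraries limit what can be seen of genes with few counts.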
